A study of Homo sapiens with 2 samples.

Results

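CCDC26, PVT1 and MYC lie within 1.94 Mb of each other in band q24 of chromosome 8, a region linked to inherited glioma risk. The peaks described here are those that the deposited pan-Kcr peak list places at these genes in crotonate-treated T98G cells. T98G, a human glioblastoma line, was treated with crotonate, a precursor of crotonyl-CoA, for 48 h at the 10 µM given in the deposited design text, and chromatin was immunoprecipitated with an antibody against crotonylated lysine (pan-Kcr). The data hold 1 ChIP library and 1 input library, both from treated cells, so there is no spread between replicates. Control T98G cells are not analysed here, and no effect of crotonate was computed. A peak was taken as a member when it lay on chromosome 8 and its assigned gene was CCDC26, PVT1 or MYC, or when its annotation named the Ensembl gene of one of them. This gave 10 of the 10041 listed peaks, out of 506 on chromosome 8. The locus was chosen by the number of peaks assigned to CCDC26 in this list, so that number is a description and carries no test.

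MYC encodes a transcription factor that drives growth and division in many tumors. PVT1 is a long non-coding RNA (lncRNA) gene beside it that is often amplified together with MYC and hosts several microRNAs. CCDC26 is an lncRNA gene farther along, in a stretch without protein-coding genes between PVT1 and itself, and glioma risk variants have been mapped to it. Lysine crotonylation is an acylation of histones and other proteins that, on histones, is known from active promoters and enhancers.

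CCDC26 had 7 peaks, PVT1 had 3 and MYC had none. All of them were low. The ChIP fragments at the summit of a peak, recovered from the fold enrichment and the p-value of the list, numbered 2 in 7 of the member peaks and 3 in the other 3. No member reached 4, which 1.19% of the chromosome 8 peaks did. Fold enrichment, the height of a summit relative to the caller's background, ran from 2.54 to 3.63 among the members with a median of 2.72, against a median of 2.73 over chromosome 8. A count of 2 fragments has an exact Poisson 95% interval of 0.242 to 7.22, and a count of 3 one of 0.619 to 8.77, so the fold enrichments given below are listed values that do not rank the members. The Poisson intervals cover counting error only. The smallest q among the members was 0.831, and 7 of the 10 had a q of 1, as did 76.1% of the chromosome 8 peaks. The smallest q of the whole list was 0.0557.

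MYC itself held no listed peak. The last peak before it lay 143 kb away, from 127591539 to 127591946, in an exon of the lncRNA gene AC104370.1. With 4 fragments and a fold enrichment of 4.22, that peak ranked 6 of 506 on chromosome 8 by listed fold enrichment. The first peak after MYC began 14.9 kb beyond its end, from 127757819 to 127758112, and was assigned to CASC11, an lncRNA gene that lies beside MYC on the other side. A second CASC11 peak followed 5.95 kb later, from 127764062 to 127764319. Both were intergenic peaks of 2 fragments, with fold enrichments of 2.63 and 2.70. The interval free of peaks around MYC was 166 kb long, and 51.1% of the 505 intervals between neighbouring peaks on chromosome 8 were at least as long. In the stretch from MYC to CCDC26 with 10 Mb on each side, where the median interval was 106 kb, 34.3% of 140 were. MYC is 7.52 kb long in RefSeq. At the rate of the surrounding chromosome, given below, a stretch of that length would hold 0.0474 peaks, so the lack of a peak says little about MYC.

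The first PVT1 peak lay from 127857183 to 127857441, 1.97 kb inside an alternative start of the gene (transcript ENST00000670204), and was classed as promoter. It held 2 fragments at 2.62-fold. The next lay from 128090019 to 128090448, in exon 6 of 9 of another PVT1 transcript, and held 3 fragments at 3.48-fold. This was the only member classed as exonic. The third lay from 128136470 to 128136793 in intron 6 of 10 of a long PVT1 transcript. It was assigned to MIR1208, a microRNA gene 13.3 kb farther on, and counts here through its annotation. It held 2 fragments at 2.72-fold.

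A further peak lay between the first and the second of these, inside the RefSeq span of PVT1, but was assigned to the promoter of TMEM75, an lncRNA gene in this list. It ran from 127946637 to 127947022 and held 3 fragments at 3.56-fold. By overlap with the RefSeq span of 307 kb, PVT1 therefore also had 3 peaks, the TMEM75 peak in place of the one assigned to MIR1208, which lies past the RefSeq end of PVT1. Between PVT1 and CCDC26 the list gave 2 peaks over 795 kb. One was intergenic, nearest to AC100822.1, at 2.71-fold from 128307523 to 128307906. The other was in an intron of the lncRNA gene LINC00824, with 3 fragments at 3.51-fold, from 128531542 to 128531910.

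**Figure D1:**
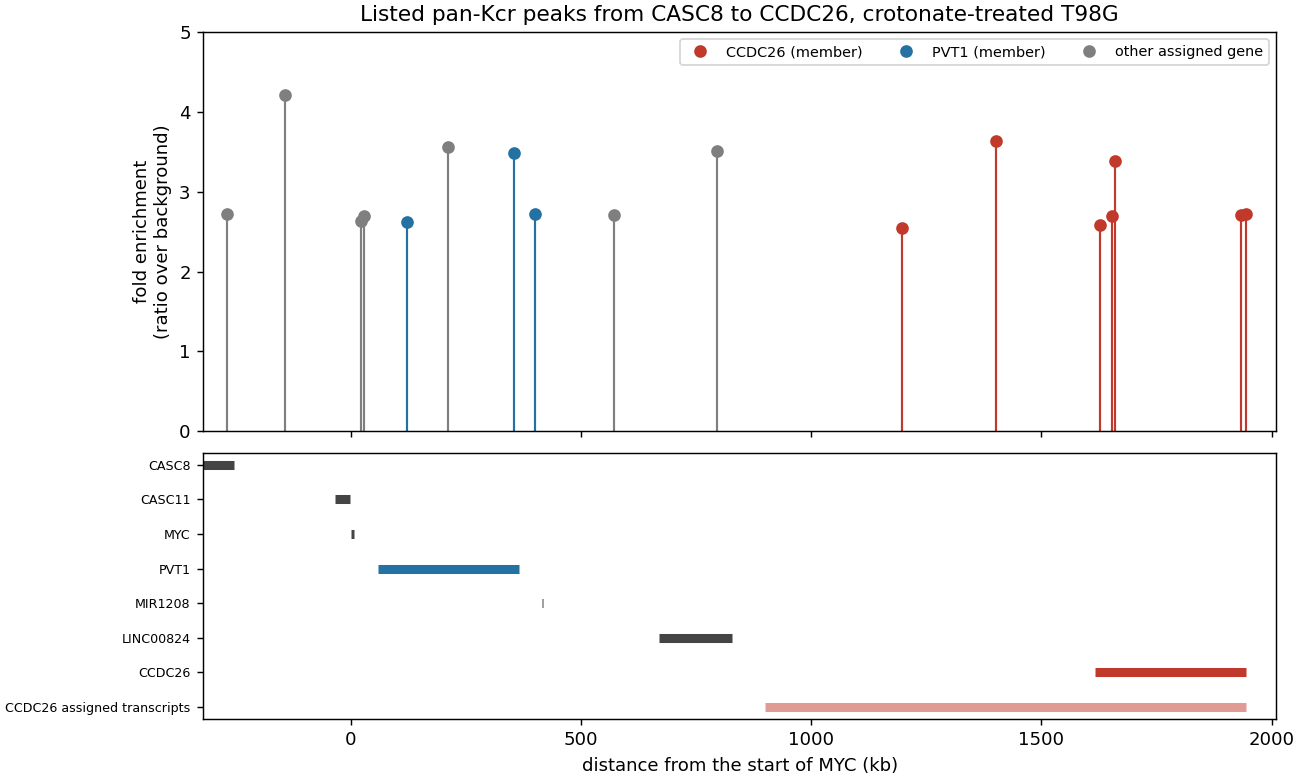
The upper panel plots the fold enrichment of each listed peak against its distance from the start of MYC in kb, with CCDC26 peaks in red, PVT1 peaks (with the one assigned to MIR1208) in blue and peaks of other genes in grey. The lower panel gives the RefSeq gene spans and, in pale red, the span of the CCDC26 transcripts to which peaks were assigned. MYC carries no peak, and fold enrichment of the members stays between 2.54 and 3.63.

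The 7 CCDC26 peaks were spread over 748 kb and were assigned to 6 different CCDC26 transcripts. CCDC26 is read toward MYC, so its start lies at the far end. The farthest peak, from 129680237 to 129680538, covered the start of transcript ENST00000446592, at a distance of 0 bp. It was the only member within 1 kb of an annotated start, and held 2 fragments at 2.72-fold. Inside the gene, 11.6 kb from it, a second peak of 2 fragments lay in the first intron of the same transcript from 129668354 to 129668670, at 2.71-fold.

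A group of 3 CCDC26 peaks followed after 273 kb. One of them lay from 129394716 to 129395048, in intron 3 of 8, with 3 fragments at 3.39-fold. Only 4967 bp separated it from a promoter peak of 2 fragments at 2.70-fold, from 129389485 to 129389748, which was 1.22 kb upstream of an internal start (ENST00000674599). This was the closest of the 14 neighbouring pairs from MYC to CCDC26, and is named for that reason. On chromosome 8 as a whole 9 of 505 neighbouring pairs (1.78%) were closer than 5 kb, a cut just above this pair's distance. The third peak of the group, from 129363093 to 129363431, was intronic with 2 fragments at 2.58-fold.

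The remaining 2 CCDC26 peaks lay outside the RefSeq gene span of 329 kb, in introns of other Ensembl transcripts of the gene. One was in a transcript that runs from inside that span toward PVT1. The other was in a transcript of 332 kb (ENST00000643616) that starts 33.5 kb from the peak. That transcript lies wholly on the PVT1 side of the RefSeq span, without overlap. The peak from 129137923 to 129138340, in intron 4 of 8, held 3 fragments at 3.63-fold with a p of 4.12e-06. The peak nearest to PVT1, from 128932234 to 128932536, held 2 fragments at 2.54-fold with a p of 0.00084. These are the ends of the members' range, and the counting intervals of their fragments overlap. Over the RefSeq span, CCDC26 thus had 5 overlapping peaks, not 7. Whether these peaks belong to CCDC26 depends on the annotation used.

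By class, 6 of the 10 members were intronic, 3 lay at promoters (within 3 kb of a start) and 1 was exonic. Promoter shares were 30.0% of the members (exact binomial 95% interval 6.67 to 65.2%) and 19.0% of the chromosome 8 peaks (15.6 to 22.7%), and these intervals overlap. Of the members, 30.0% held 3 or more fragments (6.67 to 65.2%), against 26.3% on chromosome 8 (22.5 to 30.4%). The length of the member peaks ranged from 259 to 430 bp, with a median of 320.5 bp against 314 bp on the chromosome. In height and length the members were thus within the range of the other peaks of their chromosome.

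The background behind each member, also recovered from the list, is set by the local input where that exceeds a genome-wide level. In fragments per base on the scale of the ChIP library, this lowest level was 0.0999. None of the 10 members stood at it (exact 95% interval 0 to 30.8%). None of the 15 peaks between the start of MYC and the end of CCDC26 did either (0 to 21.8%). Of the chromosome 8 peaks 32.8% did, but in the 10 Mb on each side of that stretch only 11.9% (6.82 to 18.9%). Both intervals of the locus hold the 11.9%. Of the PVT1 peaks, the first had a background of 0.143, the second 0.148 and the one assigned to MIR1208 0.102. The backgrounds of the CCDC26 peaks ran from 0.102 to 0.179. They fit whole numbers of input fragments. For 5 of the 7 CCDC26 peaks this was 22 to 35 fragments in 10 kb, where the lowest level equals 21.6, and for the other 2 it was 1 fragment within a fragment length of 258 bp. For the 3 PVT1 peaks it was 22 to 32 in 10 kb. Several members thus lay only slightly above the lowest level. The list gives a background for called peaks alone, and its threshold lets higher backgrounds pass at taller peaks, so it does not measure copy number in this aneuploid line. The part of copy number in the number of peaks was not tested.

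**Figure D2:**
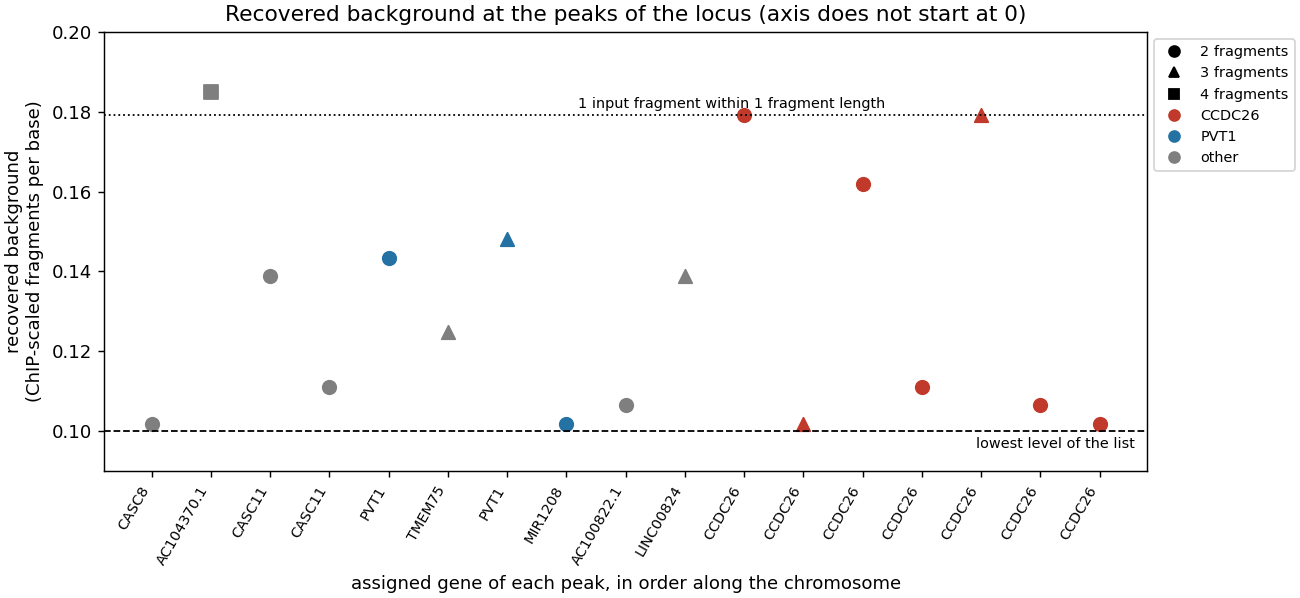
Each point is a listed peak from CASC8 to CCDC26 in order along the chromosome, and the y axis gives its recovered background in ChIP-scaled fragments per base. Circles, triangles and the square mark 2, 3 and 4 fragments, and the dashed line is the lowest level of the list, 0.0999. All points lie above that line, with the members between 0.102 and 0.179.

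Across the whole window from the start of MYC to the end of CCDC26, 1.94 Mb long, the list held 15 peaks, the 10 members and 5 assigned to other genes. This is 7.71 peaks per Mb (exact Poisson 95% interval 4.32 to 12.7). The rest of chromosome 8, between the outermost listed peaks, held 491 peaks over 142 Mb, or 3.45 per Mb (3.15 to 3.77). The ratio was 2.24 (95% interval 1.24 to 3.73), given as a description since the locus was chosen with its peaks known. Leaving out the transcripts of CCDC26, the gene that led to the choice, the 899 kb from MYC up to them held 8 peaks, or 8.90 per Mb (3.84 to 17.5). That stretch includes the PVT1 members, so it is not free of the choice. The 1046 kb of the CCDC26 transcripts held 7, or 6.69 per Mb (2.69 to 13.8). These intervals overlap widely, and no difference between CCDC26 and the rest of the window can be read from them.

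The high density was shared by the end of the chromosome. The 10 Mb before the window held 60 peaks, or 6.0 per Mb (4.58 to 7.72), and the 10 Mb after it held 66, or 6.60 per Mb (5.10 to 8.40). Set against both flanks together, a comparison chosen after the values were seen, the ratio of the window was 1.22 (0.665 to 2.10), an interval that includes no difference. Farther before the window the list held 322 peaks over 117 Mb, or 2.74 per Mb (2.45 to 3.06), and the last 4.91 Mb of the chromosome held 43, or 8.77 per Mb (6.34 to 11.8). At the rate of the flanks, the 1046 kb of the CCDC26 transcripts would hold 6.59 peaks, where 7 were listed. The RefSeq span of CCDC26 would hold 2.07, where 5 overlapped it, the last of them only at the gene's edge. That of PVT1 would hold 1.93, where 3 overlapped it.

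In bins of 5 Mb counted from the start of MYC, none of the 24 bins that lay more than 10 Mb before it reached more than 4.40 peaks per Mb, and none of the 6 bins from there to the end of the chromosome held fewer than 5.40. The step between the adjoining bins was from 3.80 to 5.40 per Mb, and their counting intervals, 2.29 to 5.93 and 3.56 to 7.86, overlapped. The share of peaks at the lowest background, pooled over parts of the chromosome, was 45.3% (39.8 to 51.0%) more than 10 Mb before the window, 8.33% (2.76 to 18.4%) in the 10 Mb before it and 15.2% (7.51 to 26.1%) in the 10 Mb after it. By bin, the share ran from 22.2 to 80.0% in the 24 bins and from 4.35 to 21.9% in the 6. Among the 24, the 3 bins from -55 to -40 Mb held 1.40 to 1.80 peaks per Mb with shares of 22.2 to 28.6%. Among the 6, the bin from 5 to 10 Mb held 6.40 per Mb with the highest share, 21.9%. The part of the input in the density of peaks was not tested.

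Divided into stretches of the window's length, chromosome 8 gave 73 with a median of 6 peaks and a range of 0 to 15. The window, with 15, was among 5 stretches that reached the highest number. Of these 5, 4 were among the 11 stretches made up of the window and those within 10 Mb of it. The median of the 11 was 14, and both the 4 and the 11 count the window itself.

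**Figure D3:**
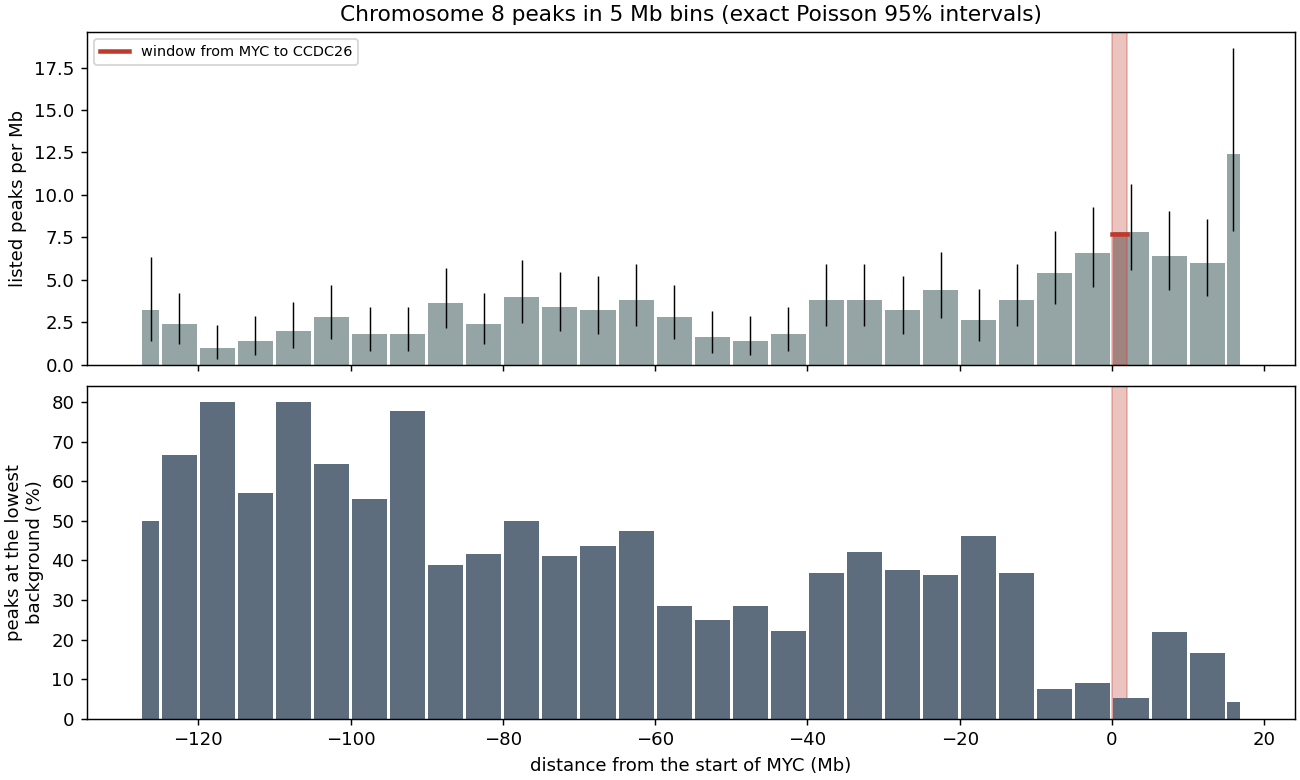
The upper panel gives the listed peaks per Mb in bins of 5 Mb (shorter at both ends) against the distance from the start of MYC in Mb, with exact Poisson 95% intervals, and the red line is the window from MYC to CCDC26 at 7.71 per Mb. The lower panel gives the percent of the peaks of each bin at the lowest background. Bins from 10 Mb before MYC to the chromosome's end hold 5.40 peaks per Mb or more, and those before hold 4.40 or fewer.

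Because a long gene collects more peaks, CCDC26 and PVT1 were set beside the other RefSeq genes of chromosome 8 of at least 200 kb, by peaks overlapping the gene. Of 95 such genes, 27 had no peak and the median was 0.306 peaks per 100 kb. CCDC26 ranked first with 1.52 per 100 kb (exact Poisson 95% interval 0.494 to 3.55). PVT1 ranked 8 with 0.978 (0.202 to 2.86). Between them were PEBP4 with 1.32, ASAP1 with 1.28, SAMD12 with 1.22, FAM135B with 1.09, RIMS2 with 1.06 and EBF2 with 0.982. The interval of CCDC26 holds all of these values. The count of CCDC26 includes the peak from 129680237 to 129680538, which lay almost wholly past the end of the gene. Its summit was 1944.86 kb from the start of MYC, and the gene end 1944.81 kb. Without that peak CCDC26 would fall below PEBP4, ASAP1 and SAMD12. Of the 19 long genes within 10 Mb of the window only 2 had no peak and their median was 0.767 per 100 kb, against 0.267 in the other 76. When all 7 assigned peaks were divided by the RefSeq span, CCDC26 came to 2.13 per 100 kb (0.857 to 4.39), and when they were divided by the span of the assigned transcripts, to 0.669. Counting only peaks of 3 or more fragments, an alternative added after the values were seen, CCDC26 had 1 overlapping peak, or 0.304 per 100 kb, and ranked 16. PVT1 then had 2, or 0.652 per 100 kb, and ranked 3, behind PEBP4 with 0.878 and ADAM7-AS1 with 0.791. The first place of CCDC26 therefore rests on the peak at the gene's end and on other peaks of 2 fragments. Its rate depends on the gene model.

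**Figure D4:**
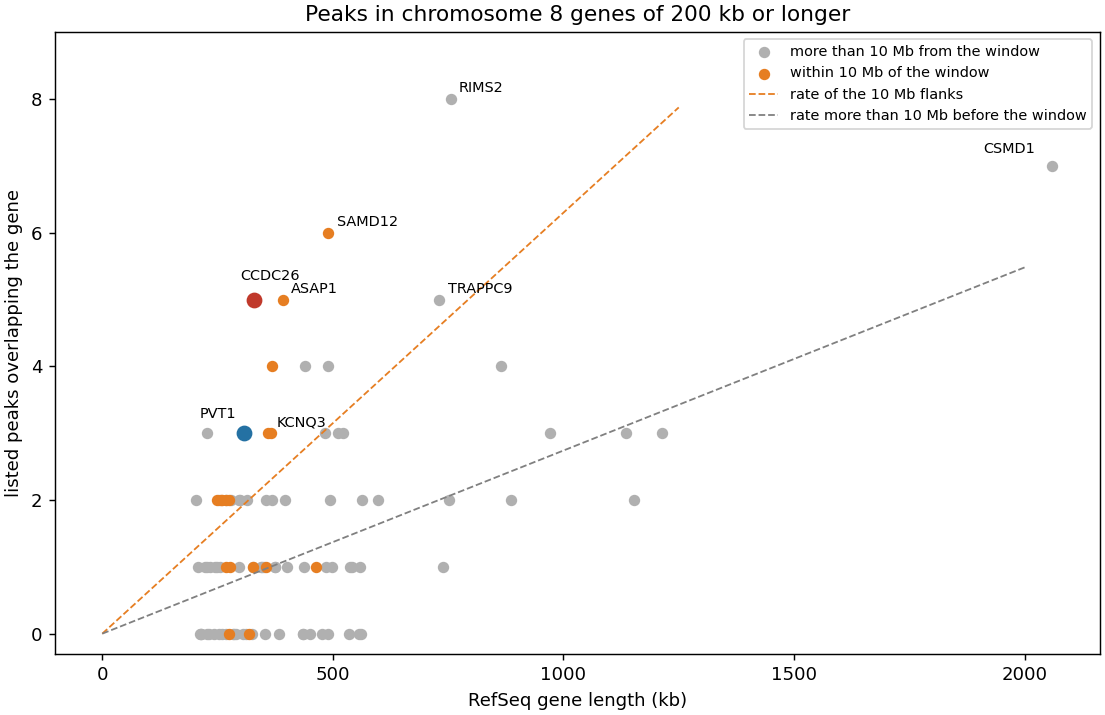
Each point is a RefSeq gene of chromosome 8 of 200 kb or more, with its length in kb on the x axis and the number of listed peaks overlapping it on the y axis. Orange points lie within 10 Mb of the window, and CCDC26 (5 peaks, red) and PVT1 (3 peaks, blue) are marked. The dashed lines are the rates of the flanks, 6.30 per Mb, and of the chromosome more than 10 Mb before the window, 2.74 per Mb.

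By number of peaks assigned to the nearest gene, CCDC26 shared the first place on chromosome 8 with RIMS2, a scaffold protein of the presynaptic active zone, at 7 each. AC118650.1, CSMD1, KCNQ3 (a neuronal potassium channel subunit) and LINC02055 had 5 each. AC090796.1, BTF3P1, CARS1P2, FAM135B, MED30 (a subunit of the Mediator complex), TRAPPC9 and TRPS1 (a GATA-type transcription factor) had 4 each. KCNQ3, LINC02055 and FAM135B had all of their peaks within 10 Mb of the window, as CCDC26 did, and RIMS2 and CSMD1 had none there. By overlap with the RefSeq spans of the genes of at least 200 kb the order differed. RIMS2 had 8 peaks, CSMD1 had 7, SAMD12 had 6, and CCDC26, ASAP1 and TRAPPC9 had 5 each. Of these overlapping peaks, 3 held 3 or more fragments in TRAPPC9 and 2 in SAMD12. CCDC26, RIMS2 and ASAP1 each had 1 such peak, and CSMD1 had none. Over the genome, 2212 lncRNA genes had an assigned peak and 1805 of these had 1. The lncRNA genes most like CCDC26, by the rule of 5 or more peaks, numbered 1, LINC02055 on the same chromosome arm, with 3 of its 5 peaks at 3 fragments.

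Of the 15 peaks of the window, 14 were assigned to lncRNA genes and 1 to a microRNA gene. The lncRNA share of 93.3% (exact binomial 95% interval 68.1 to 99.8%) compares with 41.3% (32.6 to 50.4%) in the 2 flanks of 10 Mb and 32.2% on chromosome 8. None was assigned to a protein-coding gene, against 37.3% in the flanks. The choice of lncRNA members fixes 9 of these 14 assignments, and the region holds few protein-coding genes, so the share is a description of the place. The 5 peaks that were not members were all assigned to lncRNA genes.

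**Figure D5:**
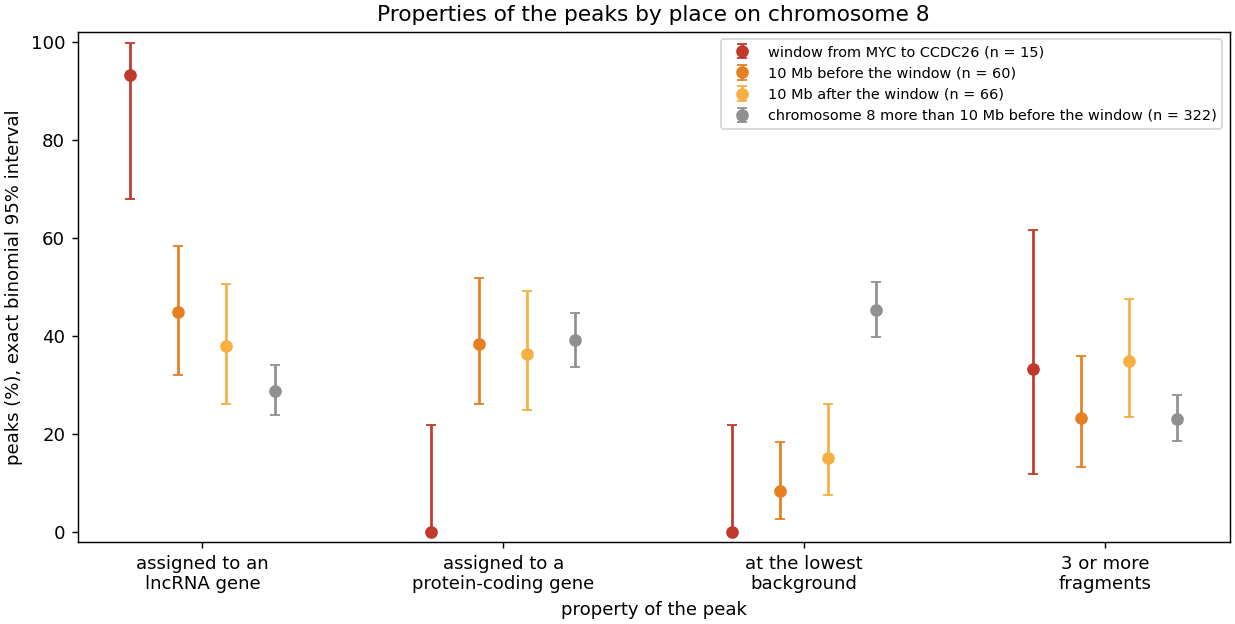
For the window from MYC to CCDC26, the 10 Mb on each side and the chromosome more than 10 Mb before the window, points give the percent of peaks with each property named on the x axis, with exact binomial 95% intervals. The window stands at 93.3% for lncRNA genes and at 0 for protein-coding genes and for the lowest background. Its share of peaks with 3 or more fragments, 33.3%, has an interval of 11.8 to 61.6% that holds the other 3 shares.

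Around the locus, 35 genes of the q24 neighbourhood other than the members were looked up, and 15 had an assigned peak. Among the 15 were MIR1208, whose peak is counted above as a PVT1 member, and CASC11, TMEM75 and LINC00824, whose peaks lie in the window. The count of 15 is thus not separate from the locus, and a comparison share was computed for protein-coding genes only. Of the 17 that are protein-coding, 8 had one (47.1%), against 41.5% of all 65 protein-coding genes within 10 Mb of the window, 20.4% of those on chromosome 8 and 17.4% of those of the genome. The share of the list was close to that of its surroundings. On the side of MYC away from CCDC26, NSMCE2, a SUMO ligase of DNA repair, had a promoter peak of 4 fragments at 4.24-fold. TRIB1, a pseudokinase of the tribbles family, had a promoter peak of 2 fragments at 2.54-fold. PCAT1, an lncRNA gene, had 2 peaks of 2 fragments, 1 at the promoter, and CASC8 had 1 in an intron at 2.72-fold, from 127466466 to 127466988.

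Beyond CCDC26, ASAP1, a GTPase-activating protein for ARF proteins, had 3 peaks, 2 of them at promoters, and the taller of these held 3 fragments at 3.57-fold. ADCY8, an adenylyl cyclase, had a promoter peak of 3 fragments at 2.94-fold. TG, which encodes thyroglobulin, had 3 peaks and KHDRBS3, an RNA-binding protein, had 2. LINC00861, WASHC5 and MTSS1, on the MYC side, had 2, 2 and 1. No peak was assigned to the other 20, among them POU5F1B, CCAT1, CCAT2, GSDMC and CYRIB.

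Genes that act with MYC were looked up in the same list. Of 29 genes of the MYC network on other chromosomes, 3 had a peak (10.3%, exact binomial 95% interval 2.19 to 27.4%), and the interval holds the 17.4% of all protein-coding genes. TRRAP, a scaffold of histone acetyltransferase complexes that MYC recruits, had 2, at the promoter with 3 fragments at 3.46-fold (chromosome 7, 98878575 to 98879248) and in an intron with 4 fragments at 3.68-fold. MNT, a repressor that competes with MYC for MAX, had a peak of 2 fragments 3.93 kb upstream of its assigned start. FBXW7, the ubiquitin ligase that marks MYC for degradation, had an intronic one of 2 fragments. MAX, MYCN and MYCL had none.

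Of 24 genes at other loci of glioma risk, 5 had an assigned peak, all of them among the 22 protein-coding ones. This is 22.7% of the 22 (exact binomial 95% interval 7.82 to 45.4%), close to the 17.4% of all protein-coding genes. TERT, the telomerase reverse transcriptase, had the only promoter peak, with 2 fragments at 2.73-fold. The others were ZBTB16 (1 peak, 3.64-fold), LRIG1 (2 peaks, the taller at 3.60-fold), SEC61G (1 peak, 3.48-fold) and EGFR (1 peak, 2.63-fold), and their peaks were intergenic. Their counts were not adjusted for gene length or for place on the chromosome.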

How the data were processed

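Pan-Kcr ChIP-seq of crotonate-treated T98G cells gave 1 ChIP and 1 input library. The authors deposited 1 annotated peak list. Per the file headers it gives fold enrichment as a ratio, −log10 p and −log10 q, with positions, genomic class and assigned gene. The aligner, the caller with its threshold, and the build were not given in the sources used here. Authors' classes and assignments were used unchanged. All 117 assigned microRNA genes found in RefSeq (GRCh38.p14) had the same start and end there, so its gene spans were used for lengths, overlaps and distances. Printed coordinates are those of the list.

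Fragments k and background b were recovered by reading fold enrichment as (k + 1)/(b + 1) and p as the chance of over k fragments under a Poisson distribution with mean b. The largest error in −log10 p was 6.52e-05. The recovery rests on that reading. A test on simulated data drew its values by the same formulas, so it checked the inversion and not the reading. Backgrounds above the lowest, at 6387 peaks, were whole numbers of input fragments within 0.03 in windows of 258 bp, 1 kb or 10 kb. Where a number in 10 kb is a multiple of 10 it may stand for 1 kb. Depth was not counted from reads.

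Rates have exact Poisson, shares exact binomial and ratios conditional binomial 95% intervals, for counting error only. Peaks are not replicates, and no test was made. Named were the members, genes with a peak in the window widened by 500 kb, the genes of chromosome 8 with most peaks, and list members with a peak, matched by symbol or synonym. From these lists 2 genes are not reported here. Members and lists were chosen with earlier results of these data known. Alternatives were peaks at least as high as the median fold enrichment, 3 or more fragments, merging within 1 kb, other assignments and other windows. Software was scipy 1.17.1, pandas 2.3.3, numpy 2.4.6 and matplotlib 3.10.9 under Python 3.11.15.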

Additional observations from a re-analysis of the deposited data

How the results depend on the processing

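With peaks of 3 or more fragments, and equally with those at least as high as the median fold enrichment, CCDC26 kept 2 peaks, PVT1 kept 1, the locus kept 3 and the window fell to 2.57 peaks per Mb. Both filters drop the 2-fragment peaks here, since none stands at the lowest background. The ratio of the window to the rest of chromosome 8 was then 2.86 and 1.42, against 2.24. With the 10 Mb flanks as the comparator, chosen after seeing the data, it was 1.22. Widening the window by 500 kb gave 5.77 peaks per Mb and a ratio of 1.67. CCDC26 peaks per 100 kb of gene span were 2.13, but 0.669 over the span of the assigned transcripts 0.609 for assigned peaks of 3 or more fragments and 0.304 for overlapping ones, all added after seeing the data. MYC had no peak under any alternative run, and merging within 1 kb changed no count of members. A chromosome length from a reference was not tried. No paired analysis was possible because the ChIP has no replicate. Every peak named is limited in precision by its few fragments, 2 at most of them.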
